A study of Mus musculus with 4 samples.

Results

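The mouse Zfp genes are a large set of zinc finger genes whose symbols are Zfp followed by a number. They were taken here as the autosomal RefSeq genes with such symbols, leaving out Zfp42 and Zfp775, that had at least 5 measured cytosines in each of a pair of regions. The first region was the promoter, which was 1000 bp on either side of any transcription start site (TSS) of the gene. The second was the last exon, taken from all RefSeq transcripts of the gene and limited to bases further than 1000 bp from the TSS of any gene. Of 362 candidate genes, 257 had 5 or more such cytosines in the promoter and 83 in the last exon, and 72 had both. These 72 were among 2515 autosomal genes with both regions. They held 4247 promoter cytosines and 2005 last-exon cytosines. In 239 of the 362 candidates the last exon had no measured cytosine.

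The liver methylomes came from 4 male mice of 6 to 8 weeks on a normal diet, with total liver taken from each. The 2 Mixed mice had an undefined background that includes C57BL/6J and other strains, and the 2 B6 mice were C57BL/6. The strains were housed at different institutions, so strain, housing and sequencing depth cannot be told apart. Enhanced reduced representation bisulfite sequencing (ERRBS) cuts DNA with restriction enzymes, of which the library protocol in the labels names MspI and the study's description of the method also TaqαI, selects fragments from CpG-rich regions and reads a cytosine as C where it was methylated and as T where it was not. It does not tell 5-methylcytosine from 5-hydroxymethylcytosine. A methylation level is the percentage of reads that were C, averaged over the cytosines of a region. Where a value is given for each mouse, the order is Mixed-1 and Mixed-2, then B6-1 and B6-2. Cytosines with at least 10 reads in all mice numbered 1276684, and the median coverage of those in the 72 genes was 46 to 68 reads in promoters and 42 to 64 in last exons, lowest in Mixed-1 and highest in B6-1. Of 18 hepatocyte markers 7 had a promoter that could be measured, with means between 0.129% (Cebpa) and 30.0% (Fgb), and of 16 blood and immune markers 3 had one, between 1.87% (Runx3) and 77.7% (Spi1). Alb and Ptprc, which define hepatocytes and white blood cells, were not covered.

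The C2H2 zinc finger is a short protein fold in which a pair of cysteines and a pair of histidines hold a zinc ion, and arrays of such fingers read DNA. Many Zfp proteins also carry a KRAB domain near their start, which recruits the co-repressor Trim28 and, through it, the histone methyltransferase Setdb1 and DNA methyltransferases, and many of these silence transposable elements. The fingers usually lie in 1 long last exon, which places their repeated coding sequence far from the CpG island in which the gene commonly starts. Promoter islands are mostly free of methylation in adult tissues, and gene bodies are mostly methylated. The 4 mice therefore allow both ends of the same genes to be compared within an animal.

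The measured CpGs of single genes are marked in their sequences, shown 5′ to 3′ on the strand of the gene from GRCm38, with promoters from the RefSeq table of that build. Capitals mark CpGs with a cytosine measured in all mice. Zfp503 and Zfp53 were set by rule, and Zfp771, Zfp467 and Zfp764 were added after their values were seen, because Zfp771 and Zfp467 have CpG-dense finger exons at opposite levels and Zfp764 had the largest difference. The promoters are the 250 bases before a TSS and the coding stretches are 150 bases of the last exon.
Zfp503 promoter, chr14:21989602-21989851, minus strand: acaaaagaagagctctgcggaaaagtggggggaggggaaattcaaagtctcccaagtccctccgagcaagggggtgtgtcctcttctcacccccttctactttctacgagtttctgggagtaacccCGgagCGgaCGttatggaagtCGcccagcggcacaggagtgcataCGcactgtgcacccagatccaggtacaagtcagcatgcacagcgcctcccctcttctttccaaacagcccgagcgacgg
Zfp503 last exon, chr14:21985460-21985609, minus strand: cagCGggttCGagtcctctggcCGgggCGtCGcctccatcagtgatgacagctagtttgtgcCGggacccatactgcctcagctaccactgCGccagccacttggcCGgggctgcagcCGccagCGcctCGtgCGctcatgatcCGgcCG
Zfp771 promoter, chr7:127244276-127244525, plus strand: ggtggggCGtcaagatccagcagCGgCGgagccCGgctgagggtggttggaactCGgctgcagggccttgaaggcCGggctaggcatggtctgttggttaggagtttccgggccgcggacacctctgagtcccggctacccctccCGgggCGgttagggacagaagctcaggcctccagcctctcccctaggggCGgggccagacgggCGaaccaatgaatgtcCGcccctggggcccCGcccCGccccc
Zfp771 last exon, chr7:127254313-127254462, plus strand: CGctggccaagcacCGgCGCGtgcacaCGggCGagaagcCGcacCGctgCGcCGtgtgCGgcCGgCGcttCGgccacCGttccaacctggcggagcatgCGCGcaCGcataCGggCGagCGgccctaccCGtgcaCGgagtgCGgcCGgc
Zfp467 promoter, chr6:48445091-48445340, minus strand: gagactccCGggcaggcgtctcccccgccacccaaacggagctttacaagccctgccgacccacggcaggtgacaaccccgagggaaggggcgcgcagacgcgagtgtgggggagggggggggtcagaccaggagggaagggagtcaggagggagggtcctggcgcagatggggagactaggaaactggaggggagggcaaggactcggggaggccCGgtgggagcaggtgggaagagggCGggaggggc
Zfp467 last exon, chr6:48438319-48438468, minus strand: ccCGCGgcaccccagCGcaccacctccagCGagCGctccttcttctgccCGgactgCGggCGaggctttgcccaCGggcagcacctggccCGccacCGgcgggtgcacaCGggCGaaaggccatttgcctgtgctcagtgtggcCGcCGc
Zfp53 promoter, chr17:21488738-21488987, plus strand: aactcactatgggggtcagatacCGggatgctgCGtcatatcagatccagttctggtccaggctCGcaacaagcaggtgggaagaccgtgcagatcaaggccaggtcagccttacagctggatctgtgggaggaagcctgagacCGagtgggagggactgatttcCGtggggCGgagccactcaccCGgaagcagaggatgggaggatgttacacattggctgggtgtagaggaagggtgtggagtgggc
Zfp764 last exon, chr7:127405217-127405366, minus strand: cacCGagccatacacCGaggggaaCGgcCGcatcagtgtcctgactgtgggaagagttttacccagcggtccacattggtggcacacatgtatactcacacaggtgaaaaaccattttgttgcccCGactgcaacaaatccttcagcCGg
The 250 promoter bases of Zfp771 had 18 CpGs and a level of 0.145% ± 0.106 (SD, n = 4), and its 150 coding bases had 26 CpGs and a level of 0.0686% ± 0.0541 over 41 cytosines. The coding stretch of Zfp467, with 16 CpGs, had 83.0%, 85.4%, 84.8% and 86.1% over 27 cytosines in the 4 mice. The coding stretch of Zfp503 was at 10.2% ± 3.18 over 27 cytosines, and that of Zfp764, with 7 CpGs, at 97.4% ± 1.81 over 6. Both stretches of Zfp771 were at the low end of the scale, while the CpG-dense coding stretch of Zfp467 was at the high end.

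Across the 72 genes, the promoter was nearly free of methylation and the last exon was highly methylated in every mouse. The mean over genes was 2.49%, 2.21%, 2.07% and 2.15% at promoters and 80.3%, 80.5%, 80.5% and 80.7% at last exons in the 4 mice. The difference within a mouse was between 77.8 and 78.6 percentage points, with a mean of 78.3 ± 0.340 (SD, n = 4). It had the same sign in 4 of 4 mice, and the exact two-sided sign-flip permutation p was 0.125, the smallest that 4 mice can give. The last exon was called higher than the promoter in 66 of the 72 genes (91.7%), by a moderated logistic model on the reads of each gene, adjusted over all 2515 genes, at an adjusted p under 0.05 and a difference of at least 25 points. The same call was made for 75.1% of all genes with both regions, and 1.31% of all genes but 0 of the 72 were called in the opposite direction. The median gene had a promoter at 0.329% and a last exon at 91.9%, beside 1.08% and 82.7% over all genes with both regions.

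**Figure D1:**
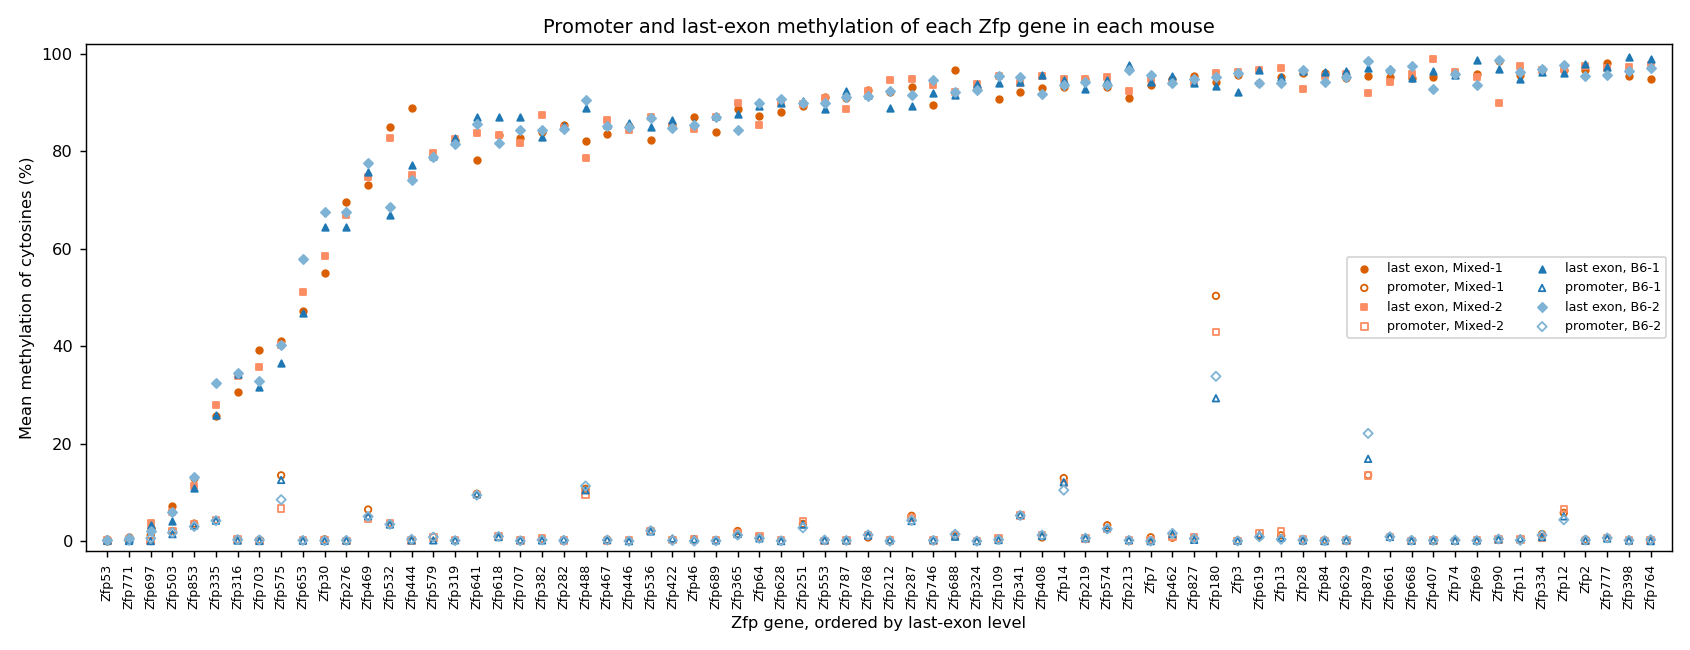
Methylation level of the promoter (open symbols) and last exon (filled symbols) of each of the 72 Zfp genes in each mouse, in percent, with genes ordered by the mean last-exon level. The last exon was above 80% in 56 genes, while Zfp180 was the only gene with a mean promoter level above 20%.

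Levels were at the ends of the scale. The last exon was above 80% in 56 genes, between 20% and 80% in 11 and below 20% in 5, and the promoter was below 5% in 63 genes and below 1% in 47. Mice were close to each other, with a median SD over the mice of 1.44 points at last exons and 0.129 points at promoters. The mean over single cytosines gave another picture at last exons. It was 58.3% ± 0.165 (n = 4), with 49.3% ± 0.324 of the cytosines above 80% and 30.9% ± 0.509 below 20%. Zfp316, Zfp771, Zfp697, Zfp703 and Zfp503 had between 100 and 249 cytosines each there, and the median gene had 13.5.

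By the mean of each distance bin, most of the rise lay between 500 and 2000 bp from the start of the gene. Beyond 1000 bp only last-exon cytosines were counted, so the region changes there as well. Averaged over genes, cytosines within 250 bp of the nearest TSS of their gene were at 2.59% ± 0.124 (n = 4, 70 genes) and those at 250 to 499 bp at 2.16% ± 0.346. Cytosines at 500 to 1000 bp were at 18.3% in 33 genes, with 17.6% to 19.4% in single mice. Of these genes 18 were below 5% and 4 above 50%, and their median was 2.75%. Last-exon cytosines beyond 1000 bp and up to 1999 bp were at 68.6% ± 1.09 in 6 genes, and those at 2000 to 3999 bp at 84.0% ± 0.468 in 15. The means of the bins from 4000 bp outwards were between 77.6% and 84.7%. Spearman's rho between the last-exon level and the distance to the TSS was -0.00518 over the 72 genes and 0.363 over the 2443 other genes, as a description across genes measured in the same libraries. The bins hold different genes, so the profile is not one of a single gene.

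**Figure D2:**
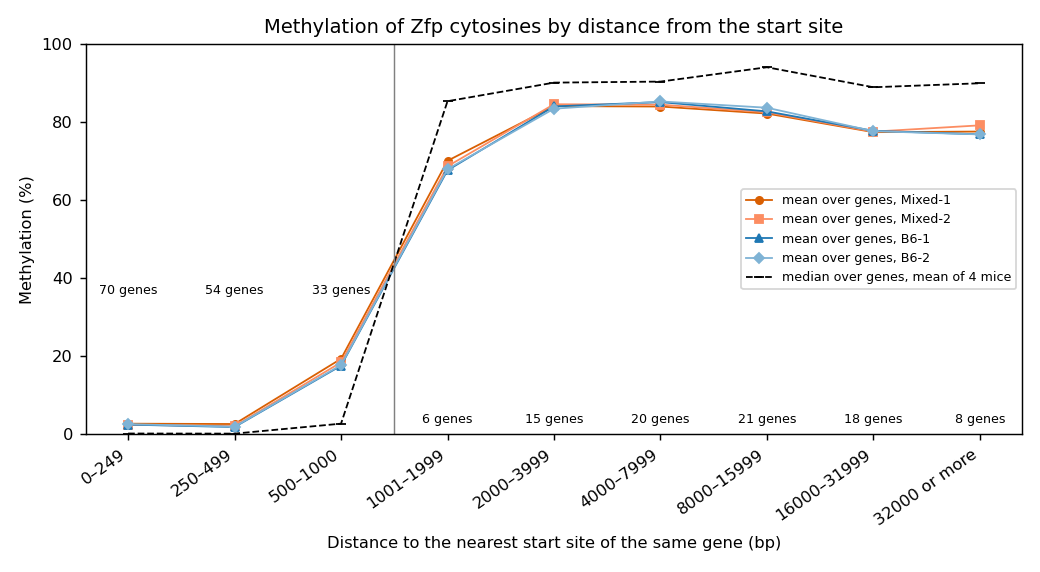
Methylation level in percent of the cytosines of the 72 Zfp genes by distance to the nearest start site of the same gene, as the mean over genes in each mouse (solid lines) and the median over genes of the 4-mouse means (dashed line). The vertical line parts promoter from last-exon cytosines, and the mean went from 18.3% at 500 to 1000 bp to 84.0% at 2000 to 3999 bp.

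The largest differences were between 95.8 and 97.0 points, in Zfp764, Zfp398, Zfp2, Zfp777 and Zfp74. The last exon of Zfp764 was at 94.9%, 97.7%, 98.96% and 97.2% in the 4 mice, and its promoter at 0.156% ± 0.120 (n = 4). The promoter of Zfp777 was measured at 311 cytosines, the most of any member, and was at 0.593% ± 0.0476, against 97.1% ± 1.07 at 6 last-exon cytosines. Zfp74 had the steadiest last exon of the 5, at 95.9% ± 0.233 over 10 cytosines. These 5 were all called, with adjusted p between 5.58e-12 and 5.78e-10 in the moderated logistic model. They were chosen by the size of this difference, so their calls are no separate support.

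Among the genes measured most densely in both regions, the outcome was mixed. By the smaller of their cytosine counts, the leading 8 were Zfp503, Zfp316, Zfp703, Zfp853, Zfp64, Zfp771, Zfp467 and Zfp469. Zfp64, Zfp467 and Zfp469 followed the typical pattern. Zfp467, a regulator of fat and bone cell fate, was at 0.212% ± 0.107 over 47 promoter cytosines and 85.1% ± 1.26 over 67 last-exon cytosines. Zfp64 was at 0.699% ± 0.172 and 87.9% ± 2.04, and Zfp469 at 5.33% ± 0.790 and 75.3% ± 1.91. In the other 5 the last exon was at 34.8% or less, and 3 of these (Zfp503, Zfp771 and Zfp853) were among the 6 genes that were not called.

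The 6 genes that were not called had last exons that stayed low. Zfp771 was at 0.859%, 0.358%, 0.517% and 0.573% over 143 cytosines in the 4 mice, and its promoter was at 0.177% ± 0.124. Zfp697 was at 2.66%, 3.75%, 3.27% and 2.17% over 134 cytosines. Zfp503, whose protein is a repressor in the developing striatum, was at 7.26%, 6.02%, 4.19% and 6.06% over 100. None of these reached 10% in any mouse, although their last exons lie 3146 to 47305 bp from the first TSS. Zfp853 was at 12.1% ± 1.11 over 53 cytosines. Zfp335, a subunit of a histone methyltransferase complex needed in neural progenitors, was at 28.0% ± 3.17 over 6 cytosines, of which the nearest lay 1038 bp from a start site of Gm46775. Its difference of 23.7 ± 1.59 points (SE) was just under the 25 points required. Apart from size, the adjusted p was under 0.05 in all but Zfp53, and the last exon was the higher region in 4 of 4 mice in 71 of the 72 genes. For Zfp771, with a difference of 0.400 points, limma on the mean percentages gave an adjusted p of 0.463.

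Zfp53 had a promoter at 0.129% ± 0.138 and a last exon at 0.175% ± 0.0944 (difference 0.0461 points, adjusted p 0.730). Its 30 last-exon cytosines, at chr17:21532359-21532608, lay in no curated transcript. They belonged to the final exon of predicted transcripts that end beyond the curated gene, whose end is at 21510477. They lay as near as 1117 bp to a start site of the next gene, Zfp52. With curated transcripts only, Zfp53 no longer met the rule, and 67 of the 72 genes so defined were called.

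**Figure D3:**
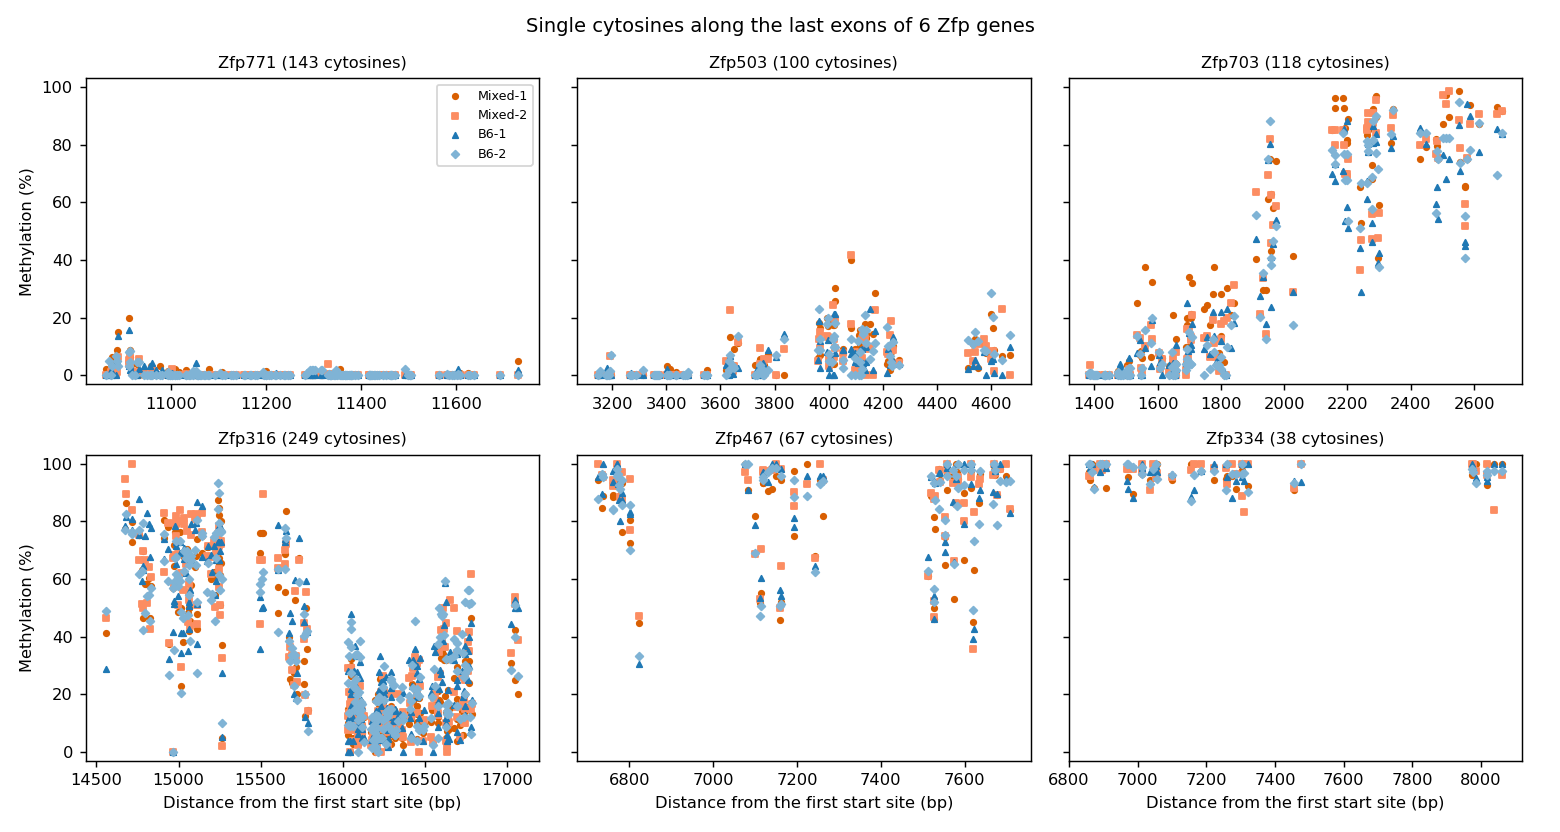
Methylation level in percent of single last-exon cytosines of 6 Zfp genes in each mouse by distance from the first start site in bp. Zfp771 and Zfp503 had means of 0.577% and 5.88%, Zfp703 changed from 12.2% to 75.8% and Zfp316 from 58.6% to 17.4% between the nearer and the farther part of the exon, and Zfp467 and Zfp334 had means of 85.1% and 96.7%. Zfp334 was added after its values were seen.

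The level changed along the exon in Zfp703 and Zfp316. Zfp703, a transcriptional repressor that can drive breast cancer, was at 39.3%, 35.6%, 31.7% and 32.8% in the 4 mice over 118 cytosines. When its exon was split at the middle of the measured span, the 76 cytosines nearer to the TSS, at 1384 to 2027 bp, were at 12.2% ± 2.40 (n = 4) and the 42 farther ones, up to 2687 bp, at 75.8% ± 5.65. Zfp316 ran the other way. Its 96 nearer cytosines were at 58.6% ± 1.60 and its 153 farther ones at 17.4% ± 2.87, and the whole exon was at 33.3% ± 1.78 over 249 cytosines. In both genes the gap between the parts was far beyond the spread between mice, and the split was chosen after the values were seen. Zfp575 (39.5% ± 1.98 over 11 cytosines), Zfp653 (50.7% ± 5.18 over 5) and Zfp30 (61.3% ± 5.63 over 36) were the other genes between 30% and 65%. All 5 of these genes were called.

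Among the 72 genes, last exons below 20% were CpG-dense, but CpG-dense last exons were not always weakly methylated. Density was taken as the number of CpGs within 100 bp on either side of a measured last-exon cytosine, and a gene by its median. The 72 genes had a median of 10 such CpGs in the last exon and 20 in the promoter, beside 8 and 20 in the other genes. Last exons were above 80% in 20 of 23 genes with 5 to 8 CpGs in that window and in 20 of 22 with 9 to 11, and 0 of these were below 20%. Of the other genes in these ranges, 64.5% and 64.5% were above 80%, and 5.48% and 9.35% below 20%. In the 12 genes with 12 to 15, 9 were above 80%, with a median level of 92.6%, while 47.2% of the 286 other genes in that range were above 80%, with a median of 75.8%. In the 13 genes with 16 or more, 5 were above 80% and 4 below 20%, with a median of 39.5%, and the 356 other genes had a median of 4.49%, with 9.83% above 80% and 74.2% below 20%. The 5 were Zfp282, Zfp467, Zfp46, Zfp668 and Zfp777, with levels between 84.9% and 97.1%. The 4 include Zfp53, whose measured cytosines lay in no curated transcript. These shares are a description, since the genes of a range differ in other respects too.

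**Figure D4:**
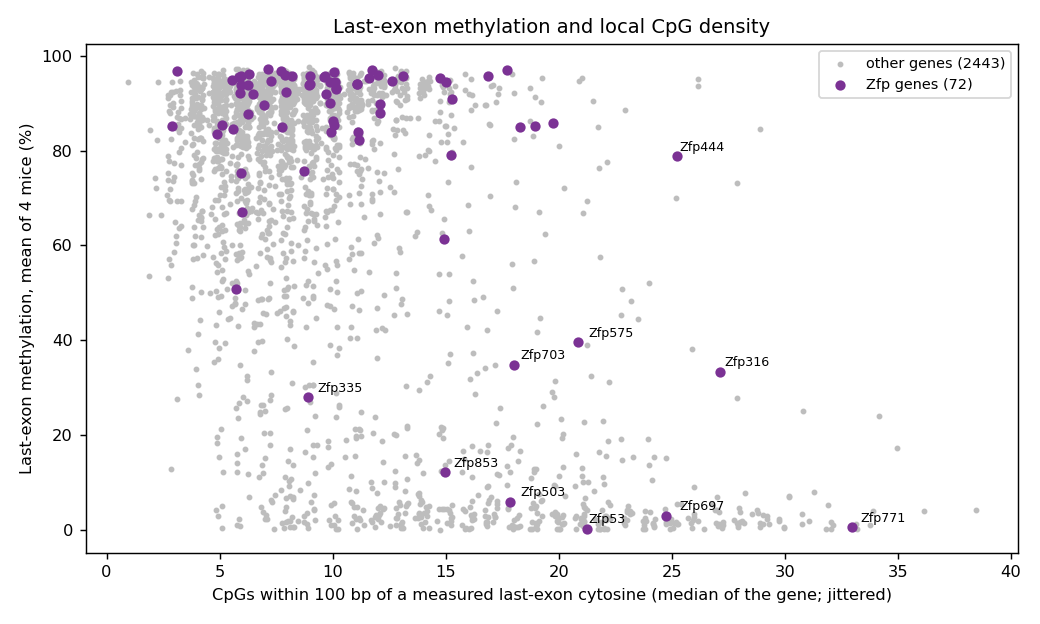
Last-exon methylation level (percent, mean of 4 mice) against the median number of CpGs within 100 bp of the measured last-exon cytosines, for the 72 Zfp genes and the 2443 other genes, with a small horizontal jitter. Below 12 CpGs, Zfp335 was the only Zfp gene under 45%, while from 16 CpGs upwards the Zfp genes ranged from 0.175% to 97.1%. The lowest was Zfp53, whose measured cytosines lay in no curated transcript.

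The finger-coding bases were close to the other coding bases of the same exons. A C2H2 pattern was counted in the protein translated from the reference for 69 of the 72 genes, with a median of 10 and at most 33 in a gene, and 82.8% of all patterns lay wholly in the last exon. In the 24 genes with at least 5 cytosines of each kind, fingers were at 76.1% ± 0.268 and other coding bases at 75.8% ± 0.337 (n = 4). The difference was 0.302 ± 0.357 points, with an exact sign-flip permutation p of 0.25, and it was negative in 13 of the 24 genes. Zfp319 had fingers 10.7 points below the rest, Zfp707 had them 9.04 points above, and in Zfp771 the fingers were 0.388 points above.

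The median last exon was higher in genes with more fingers, which was not tested. Fingers were counted over the whole protein, and all of them lay in the last exon in 56 of the 69 genes with a pattern. Zfp462 had 33 patterns and 0 of them in the last exon. The 39 genes with 10 or more C2H2 patterns had a median last-exon level of 93.9%, with 33 above 80%, and the 30 genes with 1 to 9 had 85.3%, with 22 above 80%. Zfp503, Zfp703 and Zfp365 had no pattern, with 5.88%, 34.8% and 87.6%. Over the 72 genes Spearman's rho between the count and the level was 0.428, as a description across genes. By a protein pattern of 18 KRAB positions, of which at least 13 had to match, 26 genes were KRAB-type. Their median last exon was at 94.3% and 25 of 26 were called, and the other 46 had 88.8% and 41 called, beside 75.1% of all genes called. Of these 46 genes, 3 matched 12 positions and fell just short of the cutoff. Whether any of the 46 has a KRAB domain that the pattern missed was not checked. The 25 called KRAB-type genes include Zfp764 and Zfp316, and the 1 that was not called was Zfp53. The measured last-exon cytosines of Zfp53 lay outside the curated transcript from which its patterns were read. On chromosome 7, where 26 of the 72 genes lie, the median was 92.5%, and on the other chromosomes 90.9%.

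Of 23 Zfp genes with a studied role, 6 had both regions and 4 were called, beside 75.1% of all genes. Zfp219, a partner of Sox9 in cartilage, was at 0.602% ± 0.0305 over 207 promoter cytosines and 94.1% ± 0.902 over 26 last-exon cytosines. Zfp746, a substrate of the ubiquitin ligase parkin, was at 0.157% ± 0.0321 and 92.4% ± 2.27. Zfp467 and Zfp703 were the others called, and Zfp335 and Zfp503 were not. Of 28 genes of the KRAB co-repressor pathway, 2 had both regions, namely the de novo DNA methyltransferases Dnmt3a and Dnmt3b, and both were called. Dnmt3a was at 0.511% ± 0.0451 at the promoter and 83.1% ± 1.52 at the last exon, and Dnmt3b at 0.189% ± 0.0996 and 69.3% ± 4.01. Of the other zinc finger families, 18 of 18 Zbtb and 5 of 5 Klf genes with both regions were called, with median last exons of 90.5% and 90.4%, and the 1 Zic gene, at 2.24%, was not, beside 75.1% of all genes called.

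The last exon was not far from the rest of the gene body. In the 29 genes with 5 or more cytosines elsewhere in the gene and further than 1000 bp from any TSS, the last exon was at 76.0% ± 0.247 and the rest at 73.8% ± 0.508 (n = 4). The difference was 2.74, 1.91, 1.87 and 2.30 points in the 4 mice, with an exact sign-flip permutation p of 0.125, the smallest possible. Within 25 points lay 25 of the 29 genes. Zfp13 had the last exon higher, at 95.4% against 15.1%, and so had Zfp827, at 94.6% against 62.7%. Zfp697 and Zfp335 had it lower, at 2.96% against 89.2% and 28.0% against 79.1%. Zfp13 and Zfp827 were named after their values were seen.

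The promoter mean was at least 5% in 9 genes, in some of them mainly through cytosines beyond 500 bp from the TSS. In Zfp641 the 46 cytosines within 500 bp of the TSS were at 0.366% and the 5 farther ones at 94.1%. Zfp341 (2.27% and 95.8%), Zfp14 (1.15% and 97.4%), Zfp488 (0.847% and 24.97%) and Zfp12 (0.0542% and 28.2%) were split in the same way. Zfp879 and Zfp575 had no cytosine beyond 500 bp, and were at 16.5% and 10.3%. In Zfp469 the 40 cytosines within 500 bp were at 4.16% and the 5 farther ones at 14.6%. Zfp180 stood apart. Its promoter was at 39.1% ± 9.39, with 11 of 12 cytosines above 20%, and 34.2% within 500 bp. The Zfp180 last exon was at 94.8% ± 1.13, so the gene was still called.

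Compared with the 2443 other genes with both regions, the 72 genes had higher last exons and lower promoters in every mouse. The median last-exon level was 9.19, 8.44, 8.57 and 9.21 points higher in the 4 mice, and the median promoter level was 0.789 ± 0.00651 points lower. With at least 10 cytosines in each region the last-exon gap was 15.6 points, against 8.85. Both had the same sign in 4 of 4 mice, with an exact sign-flip permutation p of 0.125, the smallest possible. Last exons above 80% made up 77.8% of the 72 genes and 54.8% of all genes with both regions, and last exons below 20% made up 6.94% and 18.4%. Coverage of the regions was similar, with medians of 47.5 and 50 reads at last exons.

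The study asked whether background strain or housing altered the liver methylome, and at these genes the strains were close. The mean over the 72 genes was 2.35% ± 0.194 (SD, n = 2) in Mixed and 2.11% ± 0.0538 in B6 at promoters, a difference of 0.237 points (exact permutation p 0.333, the smallest that 2 against 2 mice can give). It was 0.10001 points without Mixed-1, 0.374 without Mixed-2 and 0.0925 with at least 10 cytosines in each region. At last exons it was 80.4% ± 0.199 and 80.6% ± 0.173, a difference of -0.185 points (exact permutation p 0.667), which was -0.0441 without Mixed-1, -0.326 without Mixed-2, -0.308 without B6-1 and -0.0622 without B6-2. Promoters differed by less than 1 point in 67 genes, and last exons by less than 5 points in 65, with 36 genes higher and 36 lower in Mixed. The promoter mean was below 1% in 47 genes, which leaves little room for a larger difference there. The shares over all genes were not counted. At an adjusted p under 0.05 and 10 points, 1 of the 72 promoters was called, against 0.199% of all genes, and 0 of the last exons, against 0.0398%. By the same moderated logistic model, an unadjusted p under 0.05 was reached by 14 of the 72 promoters, against 12.9% of all genes, and by 8 of the last exons, against 9.58%. Limma on the mean percentages called 0 of the 72 genes in either region, and also 0 of all 2515, so its count says nothing particular about the Zfp genes.

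The promoter called was that of Zfp180, at chr7:24081877-24107709 on the plus strand. It was at 50.3%, 42.9%, 29.3% and 33.8% in the 4 mice, so that the strains did not overlap, and the difference of 15.1 points had an adjusted p of 0.0240. The mean of the mice was higher in Mixed at 12 of 12 cytosines, and both Mixed mice were above both B6 mice at 8 of them. These are the values that made the call, and 9 of the cytosines lie close together, 229 to 312 bp after the TSS. The counts are therefore no separate support, and the share of such cytosines over all genes was not counted. At the promoter cytosine 258 bp after the nearest TSS, the levels were 96.6% and 94.8% in Mixed and 37.9% and 44.3% in B6. The cytosine lay in an exon of 7 transcripts and was coding in 0 of them. This was the only one of 6252 cytosines of the 72 genes called between strains, at an adjusted p under 0.01 and 25 points (adjusted p 0.000751), against 0.00658% of all cytosines. The call was lost without B6-1 and without B6-2, fits with a single B6 mouse in which the calls over all cytosines were lost too. The cytosine is in the second CpG in capitals in these 29 bases. Only this cytosine was checked to lie in an exon. The label below names a first exon, but whether this exon is the first was not checked. Whether the bases around the cytosine lie in an exon was not checked either.
Zfp180 first exon, chr7:24082141-24082169, plus strand: atCGgggcaggaagCGgtgagcacagttt
Its coverage was 59 and 58 reads in the Mixed mice, where the cytosines of the same strand 12 to 15 bp away had 121 to 131, and 190 and 174 in the B6 mice, where they had 178 to 196. The part of this drop in the result was not tested. Without this cytosine the Zfp180 promoter differed by 11.5 points (adjusted p 0.0365, an alternative chosen after seeing the data). The promoter call was lost without 3 of the mice. Without Mixed-1, Mixed-2 or B6-1 the adjusted p was 0.170, 0.132 or 0.0714, with differences of 11.4, 18.8 and 12.8 points.

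**Figure D5:**
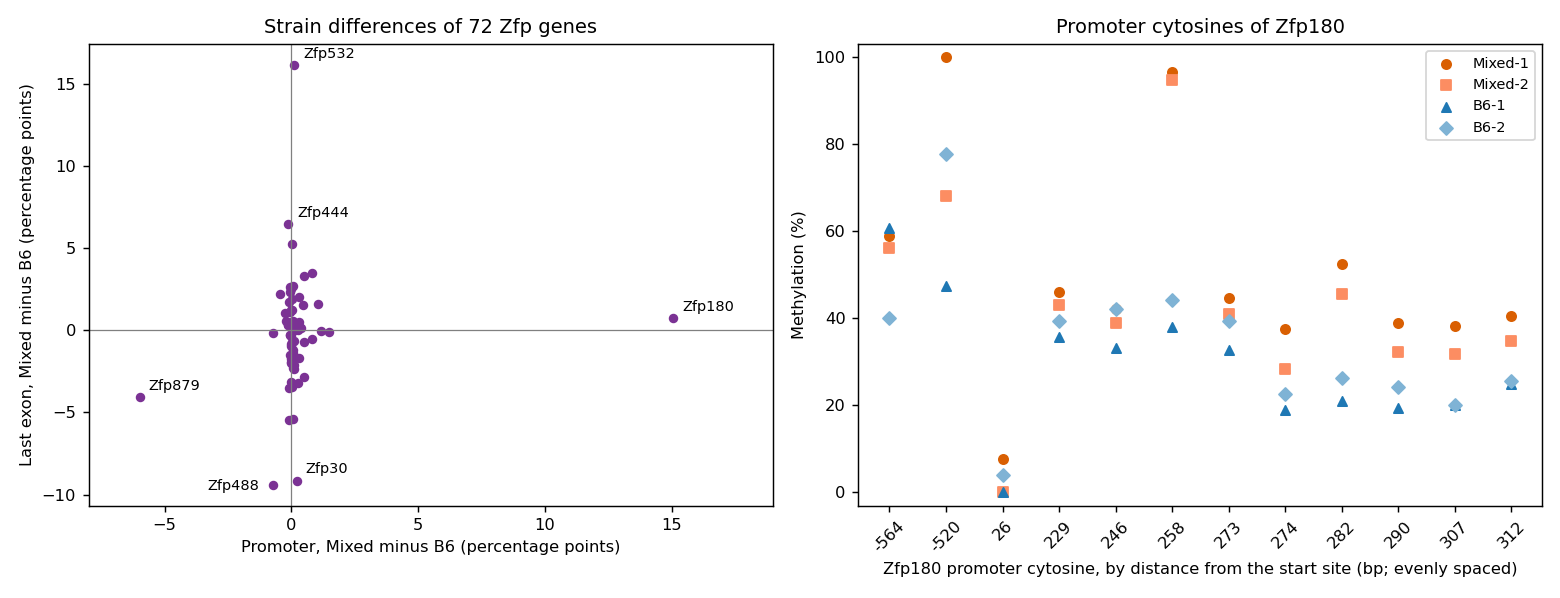
Left, Mixed minus B6 difference in percentage points at the promoter (horizontal axis) and the last exon (vertical axis), 1 point for each of the 72 Zfp genes. Right, methylation level in percent of the 12 promoter cytosines of Zfp180 in each mouse, evenly spaced and labelled by distance from the nearest start site in bp, where the cytosine at 258 bp was at 96.6% and 94.8% in the Mixed mice and at 37.9% and 44.3% in the B6 mice.

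At last exons the widest strain difference was 16.1 points in Zfp532, at 84.9% and 82.8% in the Mixed mice and 66.9% and 68.5% in the B6 mice over 5 cytosines. The strains did not overlap, but the adjusted p was 0.308. The Mixed minus B6 difference was -9.39 points in Zfp488 and -9.16 points in Zfp30, with adjusted p of 0.536 and 0.176. Zfp30, at 55.0%, 58.6%, 64.4% and 67.5%, was called when B6-1 was left out (difference -10.7 points, adjusted p 0.0190). Leaving out B6-1 also raised the last exons called over all genes from 1 to 10 of 2515. These 3 genes were named after their values were seen. The promoter of Zfp12 had an adjusted p of 0.0266 but a difference of 1.49 points.

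The rule needed 5 cytosines in each region. Of the 72 genes, 4 had just 5 in the last exon, with a median of 85.6% and a range of 50.7% to 96.9%, and 1 had just 5 in the promoter. Of the candidates left out, 8 had just 4 in the last exon, with a median of 91.4% and a range of 42.4% to 98.3%, and 0 had just 4 in the promoter.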

How the data were processed

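ERRBS libraries of total liver from 4 mice were analysed, and GRCm38 RefSeq annotation gave genes and exons. For each cytosine the authors deposited its coverage as counts of reads and the percent of reads that were C or T, at a minimum of 10 reads, on mm10. The study's methods name BSMAP as the mapper, while the submitters' processing notes list Bismark and SAMtools, and versions are not given in the sources used here. Mean coverage was 44.2 and 49.0 reads in the Mixed mice and 63.7 and 60.1 in the B6 mice. Sampling error of the levels comes from these counts of reads, which PCR copies can inflate.

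From these, 1253673 autosomal cytosines measured in every mouse were assigned to promoters and last exons. Reads were summed per gene, region and mouse and fitted by logistic regression, with the mouse as a block between regions, and the overdispersion was moderated with limma 3.58.1 (R 4.3.3) and kept at 1 or more. Adjustment was by Benjamini-Hochberg over all genes or all cytosines. Means over genes were tested by exact permutation, two-sided, in Python 3.11.15 with scipy 1.17.1. The statistical scripts were tested on simulated data. C2H2 and KRAB patterns were read from translated reference coding sequence.

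Genes named were the 8 with most cytosines in both regions, the 10 not called or with the smallest differences, promoters of 20% or more, those called between strains, the 5 largest differences and those on the list of studied roles. Others were named after their values were seen. The members, gene lists and tests were chosen with earlier results of these data known. Replicates are separate mice. Alternatives are given in the closing section.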

Additional observations from a re-analysis of the deposited data

How the results depend on the processing

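The last exon was called higher in 66 of 72 Zfp genes and 1889 of 2515 genes in all. With at least 10 cytosines in each region these were 38 of 43 and 780 of 1200, and with coding last exons 58 of 63 and 1042 of 1475. Fewer genes were tested in both settings. The share called was lower too, except for the Zfp genes with coding last exons, and the cause was not tested. The median last-exon difference from other genes was 15.6 points with at least 10 cytosines, against 8.85. Between strains, 0 Zfp promoters were called with at least 10 cytosines (for which Zfp180 had too few), with a coverage minimum of 20 or with limma on mean percentages, where the cause was not tested. Over all genes these settings called 0 of 1200, 1 of 2014 and 0 of 2515 promoters. Leaving out 1 mouse at a time gave 0 to 1 promoters, 0 to 1 last exons and 0 to 1 cytosines of the Zfp genes called. Over all genes it gave 2 to 4 promoters, against 5, and 1 to 18 last exons, against 1, and over all cytosines 0 to 321, against 84. Fisher's exact test, which ignores the spread between mice, called 3 cytosines of the Zfp genes and 1614 of all. The Zfp53 difference of 0.0461 points became -0.00701 with a coverage minimum of 20, and leaving out 1 mouse gave -0.0181 to 0.146. The exact permutation p of means over genes could not pass 0.05 in any setting, so it says nothing about stability.

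Mice of both strains share the numbers 1 and 2, but the labels tie them to nothing shared. The correlation of same-numbered deviations was -0.0412 at promoters and 0.0187 at last exons. When mice were paired by number in a replicate block, strain differences were 0.237 and -0.185 points (exact permutation p 0.5 for both), with 1 promoter, 0 last exons and 0 cytosines called. With 2 mice a strain, small strain differences at regions with few reads could not be detected.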
